A study of Mus musculus with 6 samples.

Results

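Immediate early genes of T cell activation were examined in naïve CD4 T cells from control and Rnmt cKO mice. These are the 10 genes Nr4a1, Nr4a3, Egr1, Egr2, Egr3, Fos, Fosb, Jun, Junb and Cd69, taken by gene symbol from the 46983 genes in the count tables (Fosb, which is not in the authors' edgeR table, by its Ensembl identifier). All 10 passed the filter on low counts and are among the 12336 genes tested. The control mice were homozygous for a floxed Rnmt allele (Rnmt fl/fl), in which loxP sites flank exon 3, and carried no Cre. The Rnmt cKO mice had the same floxed alleles and a Cre transgene under Cd4 regulatory sequence, Tg(Cd4-cre)1Cwi, which acts from the double positive stage of thymic development. RNMT is the enzyme that methylates the guanosine cap of RNA polymerase II transcripts. Both groups were male and on a C57B6/J background, with the age not given in the sources used here. Live naïve cells were sorted from lymph nodes by surface markers that included TCRβ+, CD4+ and CD44-, and rRNA-depleted total RNA was sequenced in 3 libraries per group. Since no Cre-carrying mice with intact Rnmt are in the comparison, effects of the transgene and of Rnmt loss cannot be told apart. The labels do not say whether each library is a separate animal, so p-values measure the spread between these libraries.

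Immediate early genes are transcribed within minutes of a stimulus from proteins that are already in the cell, without new protein synthesis. In T cells the signal comes from the T cell receptor through calcium and calcineurin, which act on NFAT and MEF2 factors, and through Ras and ERK, which act on SRF with its ELK partners and on CREB. Their mRNAs are short-lived, many of them because AU-rich elements recruit decay proteins, and in unstimulated naïve cells they are usually held low.

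Libraries held 8873413 to 11277764 sense counts in genes, and of their uniquely mapped reads the share outside genes ran from 31.8% to 47.9%. The targeted gene Rnmt fell from 56.0 ± 3.94 to 35.3 ± 7.88 CPM (counts relative to the TMM-scaled library size, mean ± SD, n = 3), with groups that did not overlap. Its log2 fold change was -0.67 with an edgeR exact test adjusted p of 0.00035, over counts of the whole gene where deletion takes out 1 exon. All 8 T cell identity markers passed the filter, with 1 called higher and 1 lower. Cd4 stood at 657 to 688 CPM in the controls against 823 to 909 CPM in the Rnmt cKO libraries. Cd3g stood at 435 to 533 and 307.5 to 414 CPM (log2 fold change -0.44, edgeR exact test adjusted p 0.0132). The CD8 genes Cd8a and Cd8b1 together stood at 21.7 to 23.3 and 13.5 to 17.3 CPM. Rnmt cKO 3 stood apart from its group, since the chi-square per degree of freedom between replicates was 22.1 and 22.9 for its pairs with Rnmt cKO 1 and 2 and 3.64 between those, and 4.18 to 13.3 between controls, where control 1 was in both of the larger values. Without Rnmt cKO 3 the same 6 immediate early genes were called, each with the same sign.

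Of the 10 immediate early genes, 6 were higher in Rnmt cKO cells and none was lower in edgeR's exact test, with p-values adjusted by Benjamini-Hochberg over all tested genes. The higher genes were Nr4a1, Nr4a3, Egr1, Egr2, Fos and Junb. Over all genes, 987 were higher, which is 8.0% of those tested, and 844 were lower, or 6.84%. At an unadjusted p under 0.05 no member was lower either, and neither the quasi-likelihood test nor DESeq2 called any member lower. In all 10 the log2 fold change of Rnmt cKO over control was above 0, with a median of 0.63, beside a median of 0.01 over all tested genes, 52.2% of which lay above 0. For the same 6 genes every Rnmt cKO library lay above every control library, which held for 16.6% of all tested genes. The converse held for no member and for 14.9% of all tested genes. In bulk RNA, more cells that express a gene cannot be told apart from more RNA per cell.

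**Figure D1:**
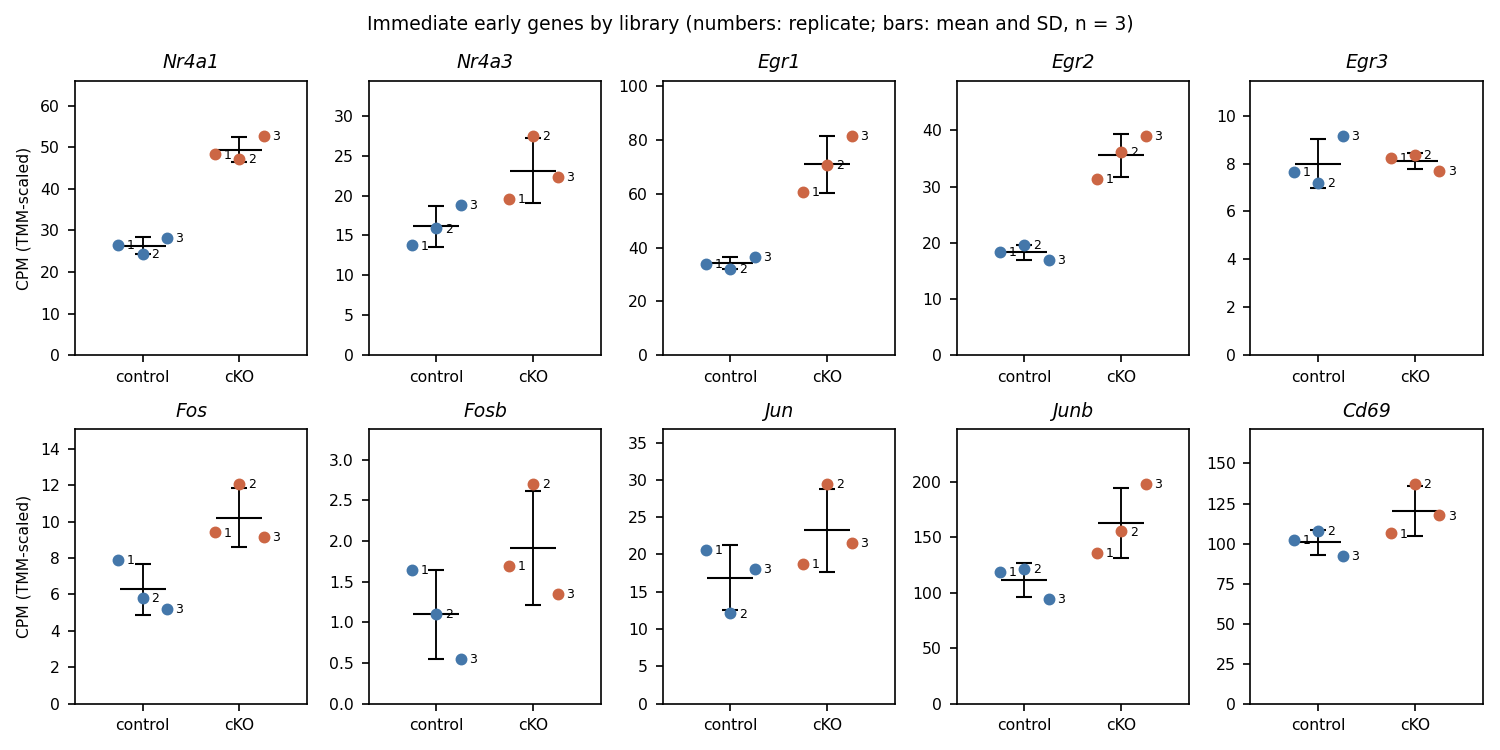
Expression of the 10 genes in each library, in TMM-scaled CPM on axes that start at 0, with replicate numbers beside the points and black bars for the mean and SD (n = 3). The Rnmt cKO points lie above all control points for Nr4a1, Nr4a3, Egr1, Egr2, Fos and Junb, and the groups overlap for Egr3, Fosb, Jun and Cd69.

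Stretches upstream of a RefSeq start of genes called higher are shown, since these members carry the difference between the groups. Those of Nr4a1 and Egr2 lie within the span of the gene in GENCODE, past its outermost start. RefSeq promoter entries (GRCm38.p6, the same build as mm10) were at hand for 7 members, Nr4a1, Nr4a3, Egr2, Fos, Fosb, Jun and Junb. Egr1, Egr3 and Cd69 have no entry in that table. The 250 bases before each RefSeq start were searched on both strands for 11 motifs and compared with all 32851 windows of that length in the table. The core of the cyclic AMP response element, TGACG, which CREB and ATF1 can bind, was found in 6 of the 7 windows, all but that of Jun, and in 17.8% of all windows. There were 4 copies each in Nr4a1 and Nr4a3, 2 each in Egr2 and Fos, and 1 each in Fosb and Junb. The CArG box, the element bound by SRF, was found in Egr2 and in 1.47% of all windows. Below, capitals mark TGACG or its reverse complement CGTCA and, in Egr2, the CArG box. Each is read 5′ to 3′ on the strand of the gene up to its RefSeq start, except that Egr2 and Nr4a3 stop 2 and 153 bases short of it, where a GENCODE transcript begins, so that the last of the 4 Nr4a3 copies is not shown.
Nr4a1 (chr15:101266596-101266845, plus strand): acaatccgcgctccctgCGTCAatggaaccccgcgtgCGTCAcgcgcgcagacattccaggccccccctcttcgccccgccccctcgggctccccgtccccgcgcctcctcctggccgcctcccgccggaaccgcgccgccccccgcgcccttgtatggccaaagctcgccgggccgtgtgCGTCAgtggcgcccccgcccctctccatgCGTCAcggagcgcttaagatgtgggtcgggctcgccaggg
Nr4a3 (chr4:48045055-48045152, plus strand): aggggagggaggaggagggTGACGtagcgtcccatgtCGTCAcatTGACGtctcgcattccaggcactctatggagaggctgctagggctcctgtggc
Egr2 (chr10:67537620-67537868, plus strand): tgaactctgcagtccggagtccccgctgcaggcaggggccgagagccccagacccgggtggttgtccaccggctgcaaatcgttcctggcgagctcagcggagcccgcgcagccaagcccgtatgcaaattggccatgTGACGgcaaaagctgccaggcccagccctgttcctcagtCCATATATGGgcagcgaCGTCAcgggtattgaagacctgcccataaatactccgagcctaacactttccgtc
Fos (chr12:85473640-85473889, plus strand): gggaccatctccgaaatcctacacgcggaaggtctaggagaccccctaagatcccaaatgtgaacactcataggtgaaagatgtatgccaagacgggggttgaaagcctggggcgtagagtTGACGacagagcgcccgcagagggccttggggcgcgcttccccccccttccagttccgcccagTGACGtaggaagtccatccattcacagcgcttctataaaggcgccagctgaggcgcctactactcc
Junb (chr8:84978749-84978998, minus strand): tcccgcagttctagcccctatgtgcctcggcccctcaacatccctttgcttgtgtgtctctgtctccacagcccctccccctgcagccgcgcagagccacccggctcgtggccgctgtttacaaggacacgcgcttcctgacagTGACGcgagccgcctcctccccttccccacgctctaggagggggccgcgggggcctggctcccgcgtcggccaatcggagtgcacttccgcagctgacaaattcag

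In Egr2 the CArG box began 73 bases before the start, between TGACG copies that began 112 and 56 bases before it. In Fos the copies began 129 and 66 bases before the start and a TATA box, TATAAA, 33 bases before it. That TATA box was found in no other member's window and in 12.4% of all windows. A match to the site of EGR proteins themselves, GCGNGGGCG, was found in Nr4a1 and Fosb and in 4.70% of all windows, overlapping a GC box, GGGCGG, in both. GC boxes were found in 5 members (Nr4a1, Nr4a3, Fos, Fosb and Jun) and in 32.7% of all windows, and CCAAT in 3 members (Egr2, Jun and Junb) and in 33.8%. No member's window held the full element TGACGTCA (1.55% of all windows), the AP-1 site TGANTCA (6.75%), the NR4A site AAAGGTCA (1.34%), the kappa B site GGGANTTTCC (0.356%) or the ETS site CCGGAAG (6.91%). The full element contains the core, and all matches are of letters only.

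The EGR genes, which encode zinc finger transcription factors, held the highest and the lowest fold changes among the 10. Positions of the genes are from GENCODE vM21 on GRCm38. Egr1 (ENSMUSG00000038418, chr18:34859823-34864984) encodes a factor that ERK signalling switches on. It was read at 34.0, 32.1 and 36.6 CPM in controls 1, 2 and 3 and at 60.5, 70.7 and 81.6 CPM in Rnmt cKO 1, 2 and 3. The means were 34.2 ± 2.22 and 70.9 ± 10.5 CPM (SD, n = 3). Every Rnmt cKO library exceeded every control, and Rnmt cKO 3 was the highest. Its log2 fold change was 1.05 ± 0.13 (standard error; edgeR exact test, adjusted p = 4.61e-14), a 2.08-fold rise. Egr2 (ENSMUSG00000037868, chr10:67535475-67542188) encodes a factor linked to the restraint of T cell responses and to anergy. Its level was 18.3, 19.7 and 17.0 CPM in controls 1, 2 and 3 and 31.4, 36.2 and 39.1 CPM in Rnmt cKO 1, 2 and 3. Again the groups did not overlap, and the log2 fold change was 0.96 ± 0.11 (standard error; edgeR exact test, adjusted p = 1.14e-10).

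Egr3 (ENSMUSG00000033730, chr14:70077203-70082614), which acts with Egr2 in limiting T cell responses, was read at 7.64, 7.19 and 9.17 CPM in controls and at 8.24, 8.35 and 7.71 CPM in Rnmt cKO libraries. The highest value of all 6 was in control 3, and the groups overlapped. The log2 fold change was 0.02 (95% interval -0.34 to 0.39, limma), which lies below the intervals of Egr1 (0.79 to 1.29) and Egr2 (0.69 to 1.20), and the edgeR exact test gave an adjusted p of 0.986. Within each library the log2 ratio of Egr1 to Egr3 was 2.10 ± 0.09 in controls and 3.12 ± 0.27 in Rnmt cKO cells (SD, n = 3), and that of Egr2 to Egr3 was 1.20 ± 0.29 and 2.13 ± 0.21. In neither ratio did the groups overlap, and both had an exact two-sided permutation p of 0.10, the smallest that 3 libraries against 3 allow, or 0.20 adjusted over the 4 ratios computed. These ratios were chosen after the values were seen.

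The NR4A genes encode orphan nuclear receptors that are widely used as readouts of T cell receptor signalling. Nr4a1 (ENSMUSG00000023034, chr15:101254269-101274795), also known as Nur77, was read at 26.6, 24.3 and 28.3 CPM in controls 1, 2 and 3 and at 48.3, 47.2 and 52.8 CPM in Rnmt cKO 1, 2 and 3. The means were 26.4 ± 2.02 and 49.4 ± 2.98 CPM (SD, n = 3), and of the 10 genes this one had the smallest standard error of its log2 fold change. The log2 fold change was 0.91 ± 0.08 (standard error; edgeR exact test, adjusted p = 4.88e-13), a 1.88-fold rise.

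Nr4a3 (ENSMUSG00000028341, chr4:48045153-48086447) was read at 13.8, 15.9 and 18.8 CPM in controls and at 19.5, 27.5 and 22.3 CPM in Rnmt cKO libraries. The groups were separated only narrowly, by control 3 and Rnmt cKO 1. Its log2 fold change was 0.52 ± 0.19 (standard error; edgeR exact test, adjusted p = 0.0225). The call was lost without Rnmt cKO 2 (log2 fold change 0.37, adjusted p 0.225), control 1 (0.42, 0.175) or control 2 (0.51, 0.130), and in the quasi-likelihood test (adjusted p 0.0584) and DESeq2 (0.0561). The log2 ratio of Nr4a1 to Nr4a3 was 0.72 ± 0.20 in controls and 1.11 ± 0.29 in Rnmt cKO cells (SD, n = 3), with groups that overlapped and an exact two-sided permutation p of 0.20 (0.267 adjusted). Nr4a2, the remaining member of the NR4A family, was too low to test, at 0.200 to 0.552 CPM in controls and 0.448 to 1.60 CPM in Rnmt cKO libraries.

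The FOS and JUN genes encode leucine zipper proteins that pair to form AP-1. Fos (ENSMUSG00000021250, chr12:85473890-85477273) was read at 7.88, 5.79 and 5.19 CPM in controls 1, 2 and 3 and at 9.40, 12.1 and 9.14 CPM in Rnmt cKO 1, 2 and 3. All Rnmt cKO libraries were above control 1, the highest control, and Rnmt cKO 2 stood above the rest. The log2 fold change was 0.71 ± 0.21 (standard error; edgeR exact test, adjusted p = 0.0167). Without Rnmt cKO 2 it was 0.56 (adjusted p 0.172), without control 2 0.65 (0.134) and without control 3 0.59 (0.140), so that the call rested on each of these libraries, and it was also lost in the quasi-likelihood test (0.0525) and DESeq2 (0.0505). Fosb (ENSMUSG00000003545, chr7:19302696-19310051), a close relative of Fos, had the fewest reads of the 10, with 14, 11 and 5 counts in controls and 16, 32 and 15 counts in Rnmt cKO libraries. Control 1 lay above Rnmt cKO 3 in CPM, and the log2 fold change of 0.81 had a 95% interval from -0.13 to 1.62 (edgeR exact test adjusted p 0.274).

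Junb (ENSMUSG00000052837, chr8:84974484-84978718), which often opposes Jun at AP-1 sites, was read at 119, 122 and 94.4 CPM in controls and at 136, 155 and 198 CPM in Rnmt cKO libraries. The groups did not overlap, and Rnmt cKO 3 was the highest. The log2 fold change was 0.55 ± 0.20 (standard error; edgeR exact test, adjusted p = 0.00289). The call was lost without control 3, where the log2 fold change was 0.44 (adjusted p 0.0539), and without Rnmt cKO 3 the log2 fold change was 0.37 (0.00664). Jun (ENSMUSG00000052684, chr4:95049034-95052222) was read at 20.6, 12.1 and 18.0 CPM in controls and at 18.7, 29.4 and 21.5 CPM in Rnmt cKO libraries. Control 1 lay above Rnmt cKO 1, and control 2 and Rnmt cKO 2 were the extremes. The log2 fold change of 0.47 had a 95% interval from -0.00017 to 0.93 (edgeR exact test, adjusted p = 0.161). It was 0.25 without Rnmt cKO 2 and 0.27 without control 2. Jund, the third JUN gene, had a log2 fold change of 0.07 with an adjusted p of 0.842. Jun overlaps the antisense gene Junos, and Junb overlaps Prdx2, on the opposite strand in both cases, and the counts used here are of the sense strand.

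Cd69 (ENSMUSG00000030156, chr6:129267325-129275436) encodes a membrane protein that retains activated lymphocytes in lymphoid tissue by pulling the receptor S1PR1 off the cell surface. It was read at 102, 108 and 92.2 CPM in controls and at 106, 137 and 118 CPM in Rnmt cKO libraries. Control 2 lay just above Rnmt cKO 1, so the groups overlapped. The log2 fold change was 0.26 (95% interval 0.03 to 0.48) with an edgeR exact test adjusted p of 0.126. Leaving out Rnmt cKO 1 brought the adjusted p to 0.0497 at a log2 fold change of 0.34. The transcript of S1pr1 itself rose from 800 ± 16.6 to 987 ± 73.3 CPM (SD, n = 3, adjusted p 0.0257), and that of Klf2, a factor that drives S1pr1 transcription and quiescence, from 277 ± 25.6 to 412 ± 42.0 CPM (adjusted p 1.97e-05). The call of S1pr1 was kept in 9 of 16 alternatives and lost without Rnmt cKO 2 or any of the 3 controls, without a filter (adjusted p 0.0629) and in the quasi-likelihood test (0.0663).

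**Figure D2:**
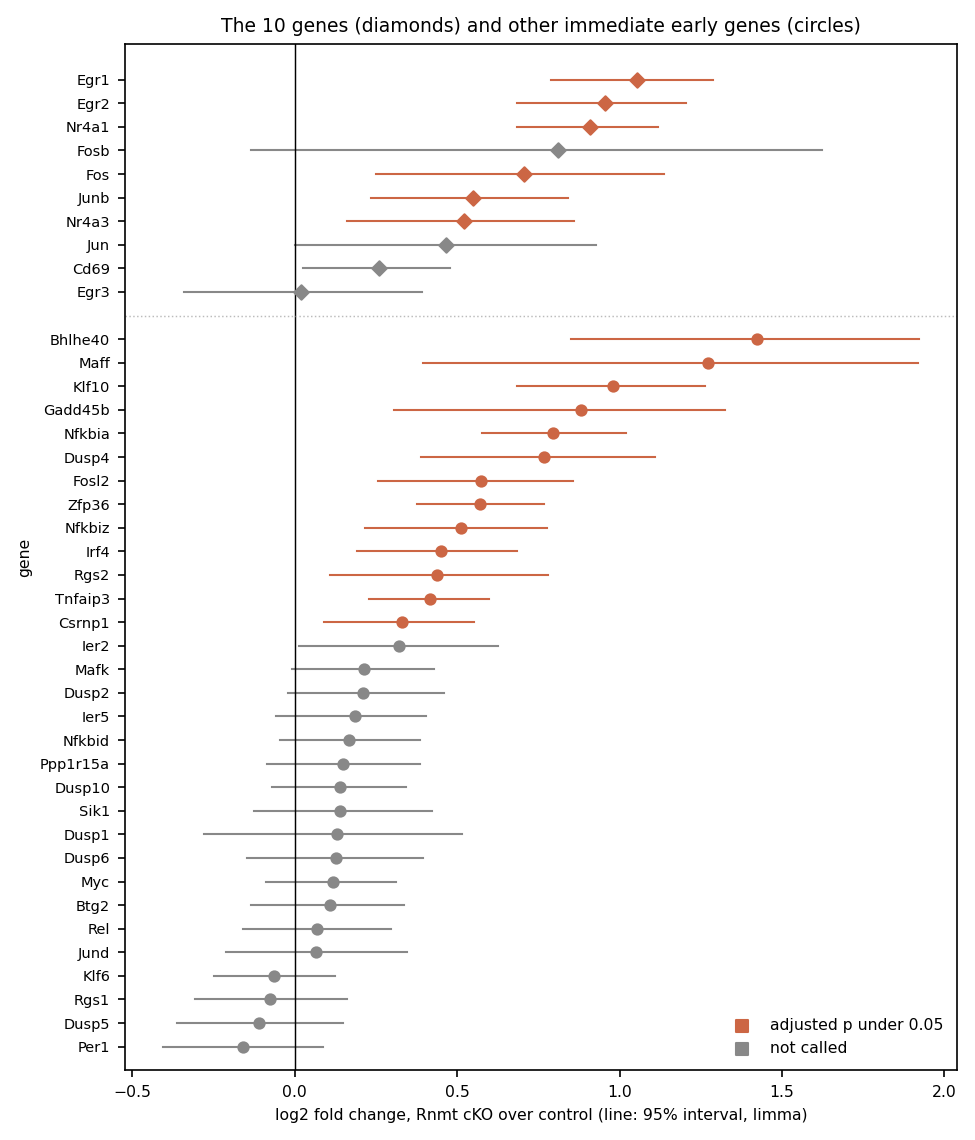
Log2 fold change of Rnmt cKO over control for the 10 genes (diamonds, above the dotted line) and the 31 other immediate early genes tested (circles), with 95% intervals from limma as lines and genes past an edgeR exact test adjusted p of 0.05 in orange. Egr1, Egr2 and Nr4a1 lead the 10 genes with intervals well above 0, Fosb has the widest interval and Egr3 is centred near 0.

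Levels of the 10 genes were compared per length, as RPKM, the CPM divided by the length of the merged exons in kilobases. In controls the order was Junb (61.7 ± 8.27), Cd69 (59.7 ± 4.64), Nr4a1 (9.84 ± 0.753), Egr1 (7.63 ± 0.495), Egr2 (5.76 ± 0.416), Jun (5.29 ± 1.37), Fos (2.98 ± 0.669), Nr4a3 (2.82 ± 0.441), Egr3 (1.95 ± 0.253) and Fosb (0.291 ± 0.145), as mean ± SD RPKM with n = 3. The neighbours Junb and Cd69, Egr2 and Jun, and Fos and Nr4a3 did not differ beyond their SDs. In Rnmt cKO cells the order of the means was the same, from 90.2 ± 17.6 for Junb and 71.3 ± 9.26 for Cd69 over 18.4 ± 1.11 for Nr4a1 and 15.8 ± 2.34 for Egr1 down to 0.505 ± 0.186 RPKM for Fosb. There Egr2 (11.2 ± 1.22) and Jun (7.28 ± 1.75) were apart by more than their SDs, and Nr4a1 and Egr1 were not.

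The Rnmt cKO libraries did not rank alike for every gene. Summed over the 10 genes, expression was 351, 348 and 320.2 CPM in controls 1, 2 and 3 and 440.2, 527 and 551 CPM in Rnmt cKO 1, 2 and 3. Rnmt cKO 2 was the highest of all libraries for 5 genes (Nr4a3, Fos, Fosb, Jun and Cd69), Rnmt cKO 3 for 4 (Nr4a1, Egr1, Egr2 and Junb), and Rnmt cKO 1 for none. Without Rnmt cKO 2, 4 of the 10 were called, Nr4a1 (log2 fold change 0.94), Egr1 (1.05), Egr2 (0.94) and Junb (0.58), with edgeR exact test adjusted p of 8.71e-10, 6.14e-10, 4.02e-07 and 0.0102. The share of reads outside genes divides the libraries in another way, since it was low in control 1, control 2 and Rnmt cKO 3 and high in the rest. Each of these sets holds 1 library of 1 group, a lone Rnmt cKO library in the low set and a lone control in the high set, so the ratios within them have no replicate check and no test. Among the low libraries the median log2 ratio of the 10 genes was 0.51 (all genes -0.01), and among the high ones 0.69 (all genes 0.01). In each set 9 of the 10 genes were above 0, the exceptions being Fosb (-0.03) in the low set and Egr3 (-0.14) in the high set. Fosb was at 1.97 in the high set, and Egr1, Egr2 and Nr4a1 were at 1.30, 1.04 and 1.05 in the low set and at 0.84, 0.99 and 0.76 in the high set.

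Markers of other cells also differed between the groups, beside 8.0% of all tested genes higher and 6.84% lower. Summed over 12 myeloid markers, expression was 11.1, 8.78 and 9.50 CPM in controls and 20.1, 44.0 and 29.2 CPM in Rnmt cKO libraries, with 3 of the 6 tested markers higher (S100a8, S100a9 and Lyz2) and none lower by the edgeR exact test, by DESeq2, by the quasi-likelihood test or at an unadjusted p under 0.05. Cd14 had no read in 5 libraries, and Ly6g had none in the controls and at most 0.179 CPM in the Rnmt cKO libraries. Of 11 B cell markers 10 had a log2 fold change above 0. By the edgeR exact test 5 were higher (1 in the quasi-likelihood test and 3 in DESeq2) and 1, Ighm, was lower. For 6 every Rnmt cKO library lay above every control and for 1 below, which held for 16.6% and 14.9% of all tested genes. The sum of the 11 was 341 to 407 CPM in controls and 254 to 313 CPM in Rnmt cKO libraries, most of it Ighm, and without Ighm it was 56.9 to 65.7 and 73.4 to 113 CPM. Of 10 proliferation markers 9 were higher, with a sum of 143 to 166 CPM in controls and 402 to 428 CPM in Rnmt cKO libraries. Of 6 regulatory T cell markers 3 were lower, with a sum of 242 to 289 and 202 to 216 CPM. Of the 3 thymocyte markers tested 2 were higher (1 in the quasi-likelihood test and 1 in DESeq2), Cd1d1 (log2 fold change 0.46) and Arpp21 (1.03). Dntt was not called (-0.15), and Rag1, Rag2 and Ptcra had at most 3 counts in any library. The sum over that list was 38.9 to 49.5 CPM in controls and 54.0 to 61.2 CPM in Rnmt cKO libraries. Of 9 memory and effector markers tested 2 were higher, Id2 (0.91) and Il2rb (0.39), and 2 lower, Cd44 (-1.05) and Prf1 (-1.22), with sums of 238 to 241 and 229 to 261 CPM. The NK cell markers Eomes (1.23) and Klrd1 (-1.34) were called in opposite directions, with sums of 11.6 to 20.8 and 12.5 to 18.4 CPM. Both erythroid markers tested, Hba-a1 and Hbb-bs, were lower, with sums of 4.86 to 7.52 and 1.16 to 1.35 CPM. The part of these cells in the differences of the immediate early genes was not tested.

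Immediate early genes outside the 10 were taken from a list of 38, of which 31 passed the filter. Of these, 13 were higher (41.9%, beside 8.0% of all tested genes) and none was lower (beside 6.84%), with a median log2 fold change of 0.21. At an unadjusted p under 0.05 the lower count was also 0, as it was with the quasi-likelihood test and DESeq2. The quasi-likelihood test called 10 of the 31 higher and DESeq2 9. For 16 of the 31 every Rnmt cKO library lay above every control, which held for 16.6% of all tested genes. The largest rise was that of Bhlhe40, a repressor that supports cytokine production in T cells, from 2.73 ± 0.816 to 7.27 ± 0.491 CPM (SD, n = 3), a log2 fold change of 1.42 (edgeR exact test, adjusted p = 1.5e-06). Maff, a small MAF protein, followed with 1.27 from low counts (adjusted p 0.0128), and its call was kept in 8 of 14 alternatives and lost without Rnmt cKO 2, control 1 or control 2, in the quasi-likelihood test (0.0536) and in DESeq2 (0.0682). Klf10, a zinc finger factor induced by TGF-β, had a log2 fold change of 0.98 (adjusted p 1.4e-09). The number of higher genes was 7 without Rnmt cKO 2 and 7 without control 2.

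Genes that T cells switch on later in activation did not move one way. Of 18 tested, 3 were higher (16.7%, beside 8.0% of all tested genes) and 4 lower (22.2%, beside 6.84%), with a median log2 fold change of 0.05. The higher genes were the co-stimulatory receptors Tnfrsf9 (log2 fold change 0.73) and Tnfrsf4 (0.64) and the membrane glycoprotein gene Cd200 (0.66). The lower ones included Cd44 (-1.05), which encodes a surface protein the sort selected against, Crtam (-0.71), an adhesion receptor, and Il2ra (-0.56), which encodes the IL2 receptor α chain and is also a regulatory T cell marker. The edgeR exact test adjusted p of these 6 genes ran from 1.32e-08 for Cd44 to 0.0272 for Crtam. The call of Crtam was kept in 5 of 15 alternatives, being lost when any library but Rnmt cKO 2 was left out, in DESeq2 (0.0789), in the quasi-likelihood test (0.070), without a filter (0.0581) and without scaling (0.106). That of Il2ra was lost without control 3 (0.0557) and without scaling (0.0544). With the replicate number in the quasi-likelihood test the calls of Il2ra (0.076) and Cd200 (0.0837) were lost too. Of 5 genes that are graded by self-peptide signal in naïve T cells, 1 was lower (20%, beside 6.84% of all tested genes). None was higher (beside 8.0%), and none had a log2 fold change above 0. The lower gene was Ly6c1 (-1.37, edgeR exact test adjusted p 1.83e-12), which falls as that signal grows. Cd5, which rises with it, was at -0.09 (adjusted p 0.696).

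**Figure D3:**
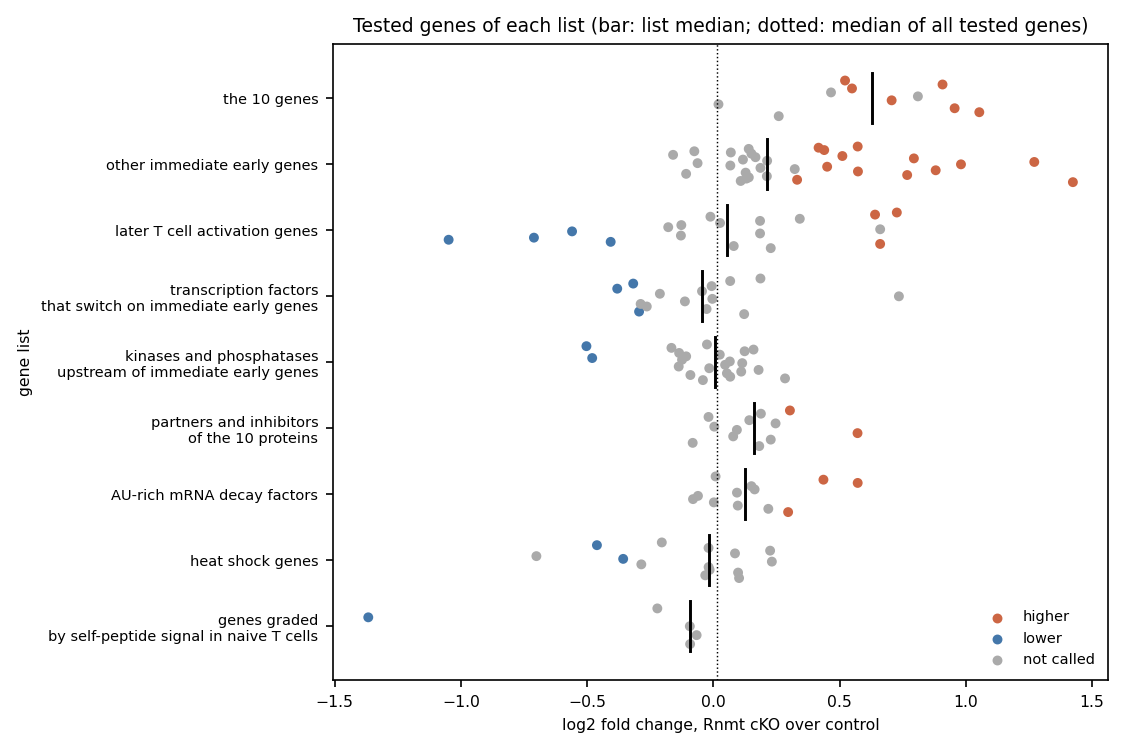
Log2 fold change of Rnmt cKO over control for each tested gene of 9 lists, 1 list per row, with higher genes in orange, lower genes in blue, uncalled genes in grey, a black bar at the list median and a dotted line at the median of all tested genes (0.01). The median of the 10 genes is 0.63 and that of the other immediate early genes 0.21, while the medians of the factors and kinases upstream of them are -0.05 and 0.00.

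Of 15 genes for transcription factors that act upstream of immediate early genes none was higher, beside 8.0% of all tested genes. In the same list 3 were lower (20%), beside 6.84%. These were Mkl2 (log2 fold change -0.38), a co-activator of SRF, Nfatc2 (-0.32), a calcineurin-dependent factor, and Creb1 (-0.29), which binds the cyclic AMP response element, with edgeR exact test adjusted p of 0.0215, 0.00531 and 0.0481. The call of Creb1 was kept in 6 of 16 alternatives, that of Mkl2 in 10 and that of Nfatc2 in 13, and all of them were lost without scaling (adjusted p 0.380, 0.1995 and 0.151). Those of Mkl2 and Creb1 were also lost without a filter and without Rnmt cKO 1, control 2 or control 3, that of Creb1 also in the quasi-likelihood test (0.0764) and without Rnmt cKO 2, and that of Nfatc2 without Rnmt cKO 2. At an unadjusted p under 0.05, 1 factor gene was higher and 5 were lower, and the quasi-likelihood test called 2 lower and DESeq2 3, with none higher. For 6 of the 15 every Rnmt cKO library lay below every control, and for 1 above, against 14.9% and 16.6% of all tested genes. Srf was at 0.19 with an adjusted p of 0.246. Of 22 kinase, phosphatase and Ras pathway genes none was higher and 2 were lower, Rps6ka3 (-0.50), a kinase that phosphorylates CREB, and Ppp3ca (-0.48), the calcineurin catalytic subunit, with adjusted p of 0.000499 and 0.000205. The lower genes are 9.09% of the list, near the 6.84% of all genes, and the absence of higher ones stands beside 8.0%. For 4 of the 22 every Rnmt cKO library lay below every control, and for 3 above. No gene of this list was higher at an unadjusted p under 0.05, by the quasi-likelihood test or by DESeq2.

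Of 16 genes for partners or inhibitors of the member proteins or for the CD69 axis, 12 were tested. Of these, 2 were higher (16.7%, beside 8.0% of all tested genes), Klf2 (log2 fold change 0.57) and S1pr1 (0.30), and none was lower (beside 6.84%). The EGR co-repressor genes Nab1 and Nab2 were at 0.25 and 0.14, with edgeR exact test adjusted p of 0.0803 and 0.551. Of 12 genes for proteins that bind decay elements of mRNA, AU-rich ones among them, 3 were higher (25%) and none was lower. They were Zfp36 (0.57) and Zfp36l1 (0.44), which promote decay of AU-rich mRNAs, and Elavl1 (0.30), which stabilizes them. Their edgeR exact test adjusted p were 1.08e-06, 9.56e-05 and 0.0116. In both of these lists no gene was lower at an unadjusted p under 0.05, by the quasi-likelihood test or by DESeq2. The quasi-likelihood test called 1 gene of the first list and 3 of the second higher, and DESeq2 2 of each. The call of Elavl1 was lost without Rnmt cKO 2, control 1 or control 2 and in DESeq2 (0.0522). Zfp36 is also an immediate early gene and is among the 13 above. Heat shock genes, which can rise with handling of cells, gave 2 lower (14.3%, beside 6.84% of all tested genes) and none higher among 14 tested. At an unadjusted p under 0.05, 1 was higher. The quasi-likelihood test called no heat shock gene in either direction, and DESeq2 called 2 lower. The lower genes were Hspe1 (-0.46, adjusted p 0.0207) and Hsp90ab1 (-0.36, adjusted p 0.0218). The first call was lost without Rnmt cKO 1 or 2 or control 1 or 3, the second when any library but Rnmt cKO 3 was left out, and both without scaling.

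**Figure D4:**
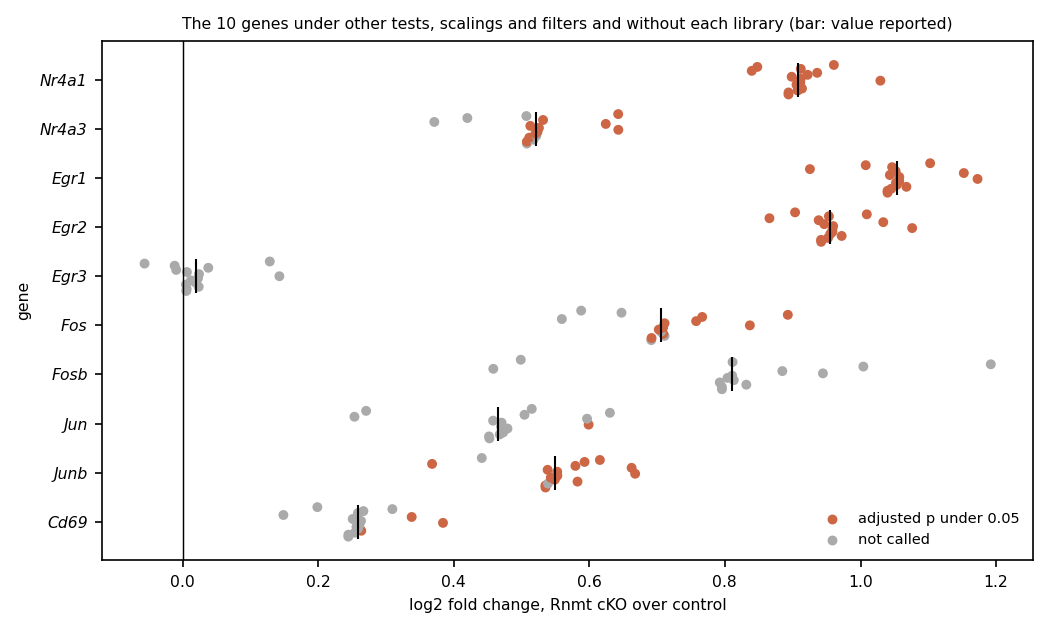
Log2 fold change of the 10 genes under the tests, scalings and filters tried and without each library in turn, 1 point per alternative, orange where the adjusted p was under 0.05 and grey where it was not, with a black bar at the value reported. Nr4a1, Egr1 and Egr2 are orange throughout, Junb in 14 of 16, Nr4a3 in 10 of 16 and Fos in 9 of 15.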

How the data were processed

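RNA from naïve CD4 T cells was sequenced in 3 control and 3 Rnmt cKO libraries. Per the labels and the study's methods, rRNA-depleted total RNA was made into stranded TruSeq libraries and paired reads were aligned by STAR 2.5.2b to mm10 with GENCODE vM12 basic. The authors deposited raw counts per gene of fragments that mapped uniquely, in columns for either strand and for each strand. The sense column was used, which gave the normalized signal columns of the authors' deposited edgeR table to within 1% for 100% of its 11221 genes. That table also holds the authors' fold changes and p-values, which were not used. Symbols and positions came from it and from GENCODE vM21, where 46488 of 46983 identifiers were found. Reads in no gene were kept out of library sizes, and their share is in the report.

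The study's methods name edgeR, its exact test and a minimum of 1 CPM in at least 3 samples. Here genes over 1 CPM in at least 3 libraries, 12336 in all and so more than the authors' table holds, were tested in edgeR 4.0.16 (R 4.3.3) by the exact test, with Benjamini-Hochberg adjustment over all tested genes and a threshold of 0.05. The TMM factors and tagwise dispersions were chosen here. CPM and RPKM (CPM per kilobase of merged exons) are TMM-scaled. Standard errors come from the log2 CPM of each library with a prior count of 2, and 95% intervals from limma 3.58.1 on the same values. Ratios within libraries were compared by exact permutation in scipy 1.17.1. Alternatives were the edgeR quasi-likelihood test, with and without the replicate number or the share of reads in no gene, DESeq2 1.42.0, other scalings, filters and strand columns, and leaving out each library. Replicates differed beyond sampling noise, so each was counted. On simulated counts with 2-fold changes the exact test recovered 164 (85.0%) of 193 changed genes among 12188 tested. Beside those 164 it called 26 unchanged genes, a larger share of false calls than the threshold of 0.05 aims at.

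The members and lists were chosen with earlier results of these data known. The genes named are all 10 members, Rnmt, and of each other list up to 3 called genes per direction with the largest absolute log2 fold change. Uncalled genes are named for their role beside a member, and markers of other cells by their list. The named markers, and the genes Zfp36 and Il2ra that stand on more than 1 list, count under each. A result on 1 naïve T cell marker is not reported here.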

Additional observations from a re-analysis of the deposited data

Results flagged for a closer look

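Reads on the strand opposite to Jun are outside the sense counts and enter only the alternative that counts either strand. Such reads were more frequent in Rnmt cKO libraries, with 5, 7 and 4 reads in Rnmt cKO 1, 2 and 3 against 1, 1 and 2 in controls 1, 2 and 3 (means 5.33 and 1.33). They amount to 1.63% of the sense reads of Jun, and the difference was not tested. Antisense reads summed over the 10 genes were 27, 19 and 36 in controls and 33, 48 and 42 in Rnmt cKO libraries, so the groups overlapped.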

How the results depend on the processing

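The 10 genes were recomputed under 16 alternatives, except that Egr3 and Fos had 15 and Fosb 14, since stricter filters leave them out. Nr4a1, Egr1 and Egr2 stayed past the threshold in all 16, with adjusted p of at most 0.00303, 0.00232 and 0.00596. The number of members higher was 6 in the exact test, 4 in the quasi-likelihood test and in DESeq2, 8 without scaling and 4 to 7 without any 1 library. The median log2 fold change of the members ran from 0.51 to 0.76. Egr3 turned below 0 without Rnmt cKO 2 (-0.0093), without control 1 (-0.0116) and without control 2 (-0.056), and ran up to 0.13 without control 3. Jun was called without scaling (adjusted p 0.0383), and Cd69 without scaling (0.0172), with the share of reads in no gene as a covariate (0.0371) and without Rnmt cKO 1. No alternative called a member lower. Over the values of the single genes named, 417 kept their direction and side of the threshold, 80 lost the threshold, 4 gained it and 3 reversed.

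Over all genes tested, 987 were higher and 844 lower. These counts became 1696 and 1466 with the share of reads in no gene as a covariate, and 793 and 636 in the quasi-likelihood test without it. Without scaling they were 1938 and 535, which moved the higher share of calls from 53.9% to 78.4% and the median over all tested genes to 0.14 on the log2 scale. DESeq2 gave 702 and 638. Without any 1 library the higher count ran from 643 (without Rnmt cKO 2) to 1221 and the lower count from 547 (without Rnmt cKO 2) to 1285 (without Rnmt cKO 3). The lower count was also 559 without control 1 and 560 without control 2, and the higher count 656 without control 2. The other immediate early genes higher ran from 7 to 12. The causes were not tested, and fewer libraries enter each of these fits.

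Replicate numbers are shared between the groups, and the labels do not say whether they pair the libraries. Libraries of the same number deviated from their group means with correlations of -0.213, -0.0164 and -0.345 across genes. Such correlations cannot show whether libraries were paired, since other differences between libraries enter them too. With a replicate block, 431 genes were higher and 276 lower, 3 members were higher (Nr4a1, Egr1 and Egr2) and 6 of the other immediate early genes were higher. Calls lost with it were also those of Cd200, Crtam, Il2ra, Creb1, Mkl2, Nfatc2, S1pr1, Elavl1, Maff, Hspe1 and Hsp90ab1. Those of Bhlhe40, Cd44, Klf2, Klf10, Ly6c1, Ppp3ca, Rps6ka3, Tnfrsf4, Tnfrsf9, Zfp36 and Zfp36l1 were kept. No control correlated best with the Rnmt cKO library of its own number.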
